A study of Mus musculus with 60 samples.

Results

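The comparison described here is that of striatum from female mice lacking paraoxonase 2 (PON2) with striatum from female wild-type mice. Its members were taken from the sample titles: 5 libraries of female PON2-deficient striatum and 5 of female wild-type striatum, 10 of the 60 libraries of the series. Cortex and cerebellum of female mice, with 10 libraries each, were used to test whether an effect in striatum differed from that elsewhere. They also entered the check of the region labels and a further fit of the striatum contrast over 30 libraries. All mice were on a C57BL/6J background, were homozygous littermates from crosses of heterozygotes, and were killed at 3 to 4 months of age after behavioural tests, which mice of both genotypes had gone through. The labels do not describe how the Pon2 allele was disrupted. The labels number the libraries within a group and do not say that each came from its own mouse, so the tests cover only the variation among these libraries, which may be technical.

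PON2 is a lactonase found in the membranes of mitochondria and the endoplasmic reticulum, where it limits the formation of reactive oxygen species. In the brain its level is high in striatum and in dopamine-rich regions, and astrocytes hold more of it than neurons. Striatum consists mostly of GABAergic projection neurons of the direct and the indirect pathway, with few interneurons, and it is crossed by bundles of myelinated axons. Myelin is made by oligodendrocytes, which wrap axons in membrane rich in cholesterol and galactolipids and held together by a small set of abundant proteins.

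The libraries held between 27.35 M and 27.96 M expected counts each, and from 20141 to 20182 genes were detected. Expression is given in CPM, the count of a gene per M counts of its library, with library sizes scaled by the trimmed mean of M values (TMM). A log2 change, taken as PON2-deficient minus wild-type, carries a standard error (SE) derived from the edgeR test. This SE is the absolute log2 change divided by the square root of the F statistic of the test. A gene was called when its Benjamini-Hochberg adjusted p over the 18179 tested genes was under 0.05. Every library matched its labels of sex and region, by levels scaled over the 30 libraries of female mice: Xist measured 625 to 908 CPM, Ddx3y at most 0.188 CPM, and Ppp1r1b, which encodes the striatal phosphoprotein DARPP-32, measured 1393 to 2390 CPM against 241 to 337 CPM in cortex. On the same scale Slc17a7, the vesicular glutamate transporter of cortical neurons, varied from 109 to 611 CPM over the 10 libraries. All levels below are scaled over the 10 libraries alone. The mean precision weight that the authors deposited was lowest in wild-type library 1 (23.3) and PON2-deficient library 5 (21.6), against 34.3 to 53.2 in the other 8.

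Pon2 (chromosome 6, 5264147 to 5298455, minus strand, GRCm38) was measured first, as the check of the genotype labels. It measured 55.0, 49.5, 49.0, 49.4 and 45.3 CPM in wild-type libraries 1 to 5 and 4.83, 3.92, 6.70, 2.53 and 2.61 CPM in PON2-deficient libraries 1 to 5. The groups did not overlap, and each PON2-deficient library kept a low level of reads on the gene. The means were 49.7 ± 3.46 CPM and 4.12 ± 1.73 CPM (SD, n = 5 each). Pon2 fell by 3.59 on the log2 scale (SE 0.217, adjusted p = 2.49e-05, edgeR), and by 3.46 to 3.84 with any 1 library left out. Pon3 (chromosome 6, 5220852 to 5256286), the paralog beside Pon2, was scarce at 1.41 ± 0.372 CPM in wild-type libraries and 1.54 ± 0.623 CPM in PON2-deficient libraries (SD, n = 5 each). It was not called (log2 change 0.12, SE 0.285, adjusted p = 0.947), and its sign turned without PON2-deficient library 5 (log2 change -0.094). Pon1 was not among the tested genes.

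Across the transcriptome Pon2 was the only gene called, 1 of 18179 (0.00550%), with 0 genes called higher. An unadjusted p under 0.05 was reached by 1579 genes (8.69%), of which 758 were higher (4.17%) and 821 lower (4.52%) in PON2-deficient striatum. Log2 changes above 0 made up 50.1% of all. All 5 PON2-deficient libraries lay above all 5 wild-type libraries for 133 genes (0.732%) and below them for 193 genes (1.06%), Pon2 included. The median log2 change over all genes was 2.00e-04. The biological coefficient of variation was 0.144. The count of calls differed between fits. DESeq2 called 101 genes (0.556%), 33 higher and 68 lower. An edgeR fit of this contrast over all 30 libraries of female mice, which estimates the spread from 3 regions, called 46 of 19776 (0.233%), 13 higher and 33 lower. That fit treated the 30 libraries as independent, and the labels do not say which of them come from the same mouse. DESeq2 and that fit both called 26 genes, 56.5% of the 46 and 25.7% of the 101. DESeq2 was run only on the 18179 genes that passed the filter, so it did not test some of the 46. Genes named below other than Pon2 were not called in the comparison of the 10 libraries, and calls by these 2 fits are given for the genes described in full.

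**Figure D1:**
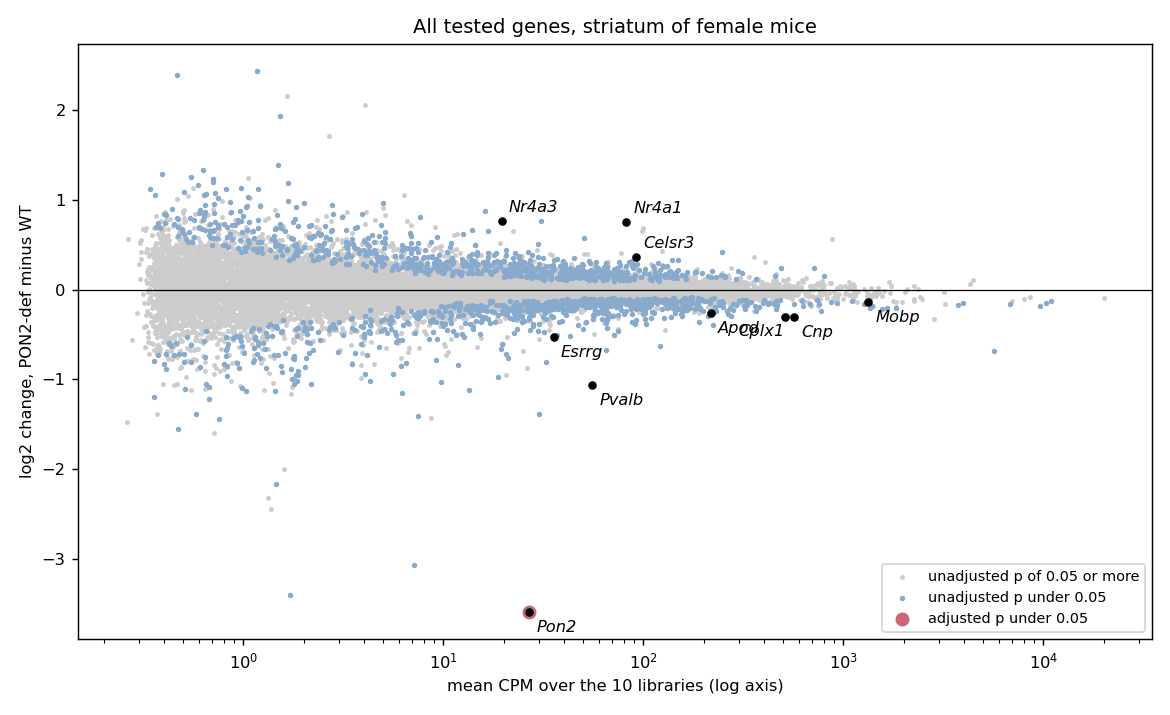
Log2 change (PON2-deficient minus wild-type) against mean CPM over the 10 libraries (log axis) for the 18179 tested genes, with genes described in the text in black. Pon2 at -3.59 is the only point past an adjusted p of 0.05, and the 1579 genes with an unadjusted p under 0.05 lie on both sides of 0.

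Genes with a predicted or clone name, or with a mean under 1 CPM in both genotypes, were left out of the rankings of higher and lower genes that follow. Among the other uncalled genes the one with the smallest p that was higher was Celsr3, which encodes a cadherin that guides axon tracts. It measured 77.0, 78.5, 72.3, 80.4 and 93.1 CPM in wild-type libraries and 107, 102, 110, 102 and 96.7 CPM in PON2-deficient libraries, so that the groups did not overlap. The means were 80.3 ± 7.76 and 103 ± 4.97 CPM (SD, n = 5 each; log2 change 0.37, SE 0.0665, adjusted p = 0.426). DESeq2 called Celsr3, and the fit of 30 libraries gave it an adjusted p of 0.0516. The next 11 higher genes of smallest p were Ccnt2 (a cyclin of transcription elongation), Nup205 (a nuclear pore protein), Slc16a7 (a monocarboxylate transporter), Cbl (a ubiquitin ligase), Zfp846, St8sia2 (which adds polysialic acid to neural cell adhesion molecules), Nktr, Dynlt1c, Atp13a3, Slc15a4 and Cep162. Their log2 changes ranged from 0.21 for Atp13a3 to 0.66 for Cep162. All but Slc15a4 had groups that did not overlap, against 0.732% of all genes in this direction. They were chosen by p in the same libraries, which favours such separation. Nup205, at 27.8 ± 1.55 against 35.4 ± 3.12 CPM (SD, n = 5 each), and Ccnt2, at 80.4 ± 1.54 against 96.1 ± 5.81 CPM, were called by both other fits.

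The lower gene with the smallest p was Pcdhgc4, a clustered protocadherin of neuronal surfaces, at 212 ± 15.4 CPM in wild-type libraries and 166 ± 11.8 CPM in PON2-deficient libraries (SD, n = 5 each; log2 change -0.36, SE 0.0647, adjusted p = 0.426). Cplx1 encodes complexin 1, which clamps synaptic vesicle fusion. Its wild-type libraries measured 513, 586, 596, 565 and 566 CPM and its PON2-deficient libraries 416, 455, 481, 486 and 458 CPM, without overlap (log2 change -0.30, SE 0.0577). DESeq2 and the fit of 30 libraries both called it, the latter with an adjusted p of 0.0183. Esrrg, a nuclear receptor that drives genes of oxidative metabolism, measured 42.0 ± 3.38 against 29.1 ± 4.48 CPM (SD, n = 5 each; log2 change -0.53, SE 0.103) and was called by both as well. The others in this set were Cnp and Apod, described with the myelin genes below, Cygb (cytoglobin), Nefm (the medium neurofilament subunit), Lrrc38, H1f0, Pvalb, Selenom and Ccdc124. Nefm measured 252 ± 29.4 against 192 ± 14.5 CPM (SD, n = 5 each; log2 change -0.39, SE 0.0820). All 12 lower genes except Pvalb had groups that did not overlap, against 1.06% of all genes in this direction. Of the 12 higher and 12 lower genes DESeq2 called all but Dynlt1c and Lrrc38. The fit of 30 libraries called Lrrc38, H1f0 and Ccdc124 beside those named with it. These genes were chosen by p in the same libraries, so neither the lack of overlap nor these calls are independent support.

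Pvalb encodes parvalbumin, the calcium buffer of fast-spiking interneurons. It measured 50.2, 81.1, 92.5, 67.2 and 84.9 CPM in wild-type libraries and 23.9, 40.8, 51.4, 40.1 and 23.2 CPM in PON2-deficient libraries. PON2-deficient library 3 lay just above wild-type library 1, and the other PON2-deficient libraries lay below all wild-type libraries. The means were 75.2 ± 16.7 and 35.9 ± 12.1 CPM (SD, n = 5 each; log2 change -1.07, SE 0.226, adjusted p = 0.426). DESeq2 called Pvalb, as did the fit of 30 libraries (adjusted p = 0.00237). In that fit the genotype effect on Pvalb was 0.056 in cortex and -0.12 in cerebellum, and its difference between striatum and cortex was -1.12 (SE 0.227, adjusted p = 0.139). Chosen after their values were seen, Syt2 (a vesicular calcium sensor) and Vamp1 (a vesicle fusion protein) were also called lower by both of these fits, at log2 changes of -0.43 and -0.63 in the fit of 30 libraries. Neurons of the thalamic reticular nucleus and of the globus pallidus also express parvalbumin. Markers of thalamic neurons were lower in 15 of 15 and pallidal and cholinergic markers in 11 of 14, the latter with 0 at an unadjusted p under 0.05, and the part of these tissues in the Pvalb result was not tested beyond the model that follows. With the thalamic mean of each library in the model the log2 change of Pvalb was -0.71 (adjusted p = 0.584).

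**Figure D2:**
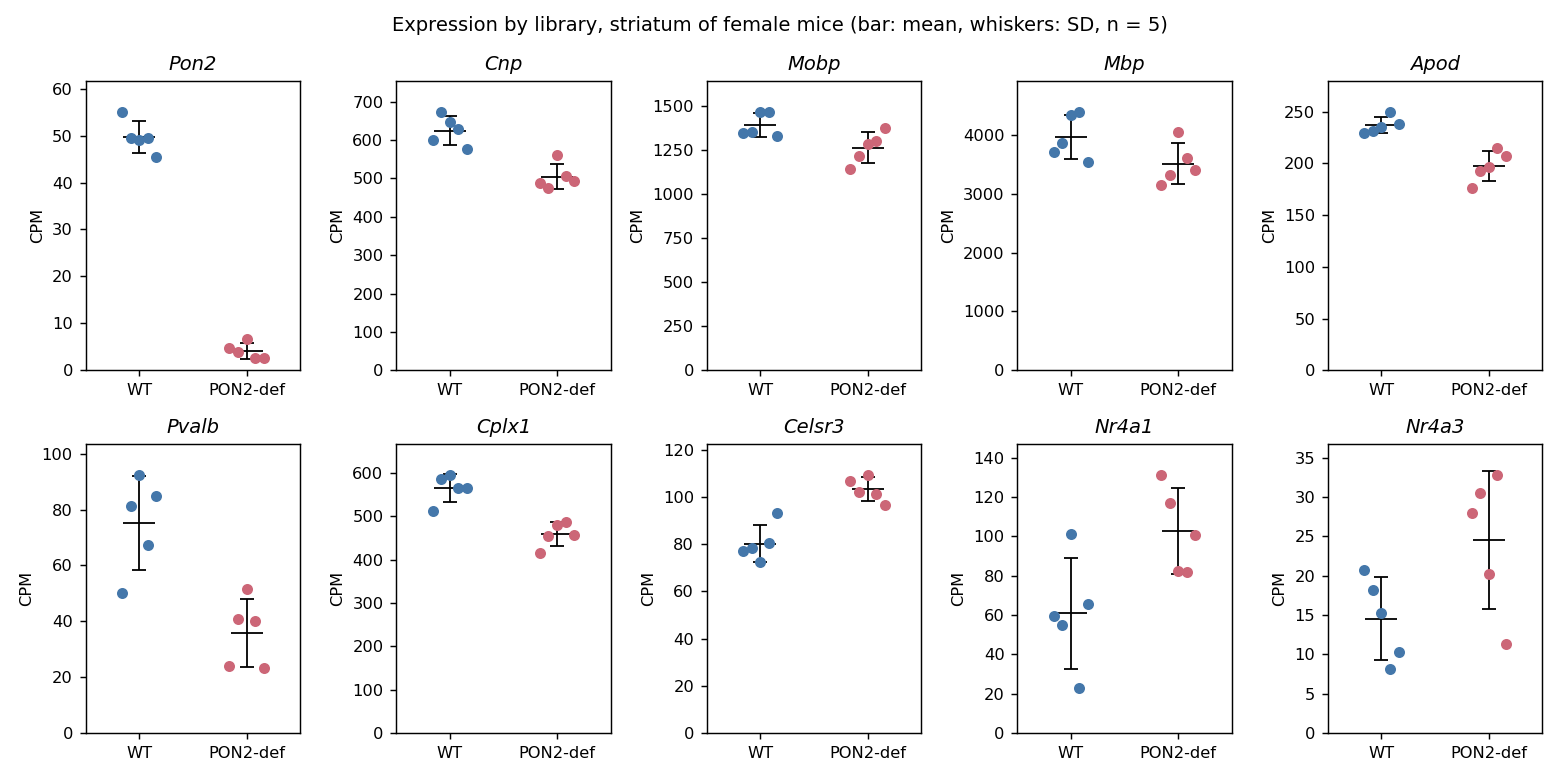
Expression in CPM of 10 genes in each of the 5 wild-type (WT) and 5 PON2-deficient (PON2-def) libraries, with the mean (bar) and SD (whiskers). The groups are separate for Pon2, Cnp, Apod, Cplx1 and Celsr3 and overlap for Mobp, Mbp, Pvalb, Nr4a1 and Nr4a3.

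The myelin and oligodendrocyte genes were described in 3 lists that together hold 72 genes, all of which were tested. None was called; 66 of the 72 were lower and 6 higher, with a median log2 change of -0.13, whereas 49.9% of all genes were lower. An unadjusted p under 0.05 was reached by 27 of the 66 lower genes and by 0 of the 6 higher ones, and 4 genes (Cnp, Cldn11, Apod and S1pr5) had all PON2-deficient libraries below all wild-type libraries. Over all genes 4.52% were lower at that p, and 1.06% had no overlap in this direction. DESeq2 called 5 of the 72, all lower (Cnp, Mal, Cldn11, Apod and S1pr5), and the fit of 30 libraries called 1 of them, Apod. Of all genes DESeq2 called 0.374% lower and the fit of 30 libraries 0.167%. In these bulk samples a lower number of oligodendrocytes and less RNA per oligodendrocyte cannot be told apart.

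The promoters of 3 of these genes are shown first because SOX10, the transcription factor that turns on myelin genes, belongs to a family that recognises the core ACAAAG. Each sequence is the 250 bases before the annotated start, on the strand of the gene, from RefSeq (GRCm38.p6), with the core or its reverse complement CTTTGT in capitals. Cnp lies at chr11:100574689-100574938 (plus strand), Apod at chr16:31314809-31315058 (minus strand) and Mobp at chr9:120149492-120149741 (plus strand).
Cnp: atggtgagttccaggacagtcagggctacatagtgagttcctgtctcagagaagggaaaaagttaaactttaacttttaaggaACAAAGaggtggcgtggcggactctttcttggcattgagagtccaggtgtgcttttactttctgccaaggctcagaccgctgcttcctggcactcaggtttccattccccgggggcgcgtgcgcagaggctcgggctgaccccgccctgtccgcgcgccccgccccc
Apod: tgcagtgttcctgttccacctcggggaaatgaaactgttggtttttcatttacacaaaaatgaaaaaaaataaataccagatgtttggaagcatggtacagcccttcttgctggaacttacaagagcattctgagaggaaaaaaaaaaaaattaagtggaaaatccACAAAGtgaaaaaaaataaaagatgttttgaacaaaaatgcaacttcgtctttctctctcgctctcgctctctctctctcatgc
Mobp: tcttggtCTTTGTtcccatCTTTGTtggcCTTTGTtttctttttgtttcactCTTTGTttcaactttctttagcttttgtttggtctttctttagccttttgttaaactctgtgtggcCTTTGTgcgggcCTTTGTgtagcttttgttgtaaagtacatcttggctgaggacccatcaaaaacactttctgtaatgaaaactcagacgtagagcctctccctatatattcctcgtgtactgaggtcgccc
Cnp and Apod hold 1 match each and Mobp holds 6, whereas most windows of the 3 lists hold none. Windows were available for 18 myelin structure genes, 20 mature oligodendrocyte markers and 15 myelin lipid genes. Both strands counted, the core was found in 8 of 25 promoter windows of the myelin structure genes (32%), in 6 of 28 of the mature oligodendrocyte markers (21.4%) and in 1 of 19 of the myelin lipid genes (5.26%), against 5408 of all 32851 windows (16.5%). A match describes these letters and is not a measured binding site.

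Of the 24 genes of myelin structure and compaction, 23 were lower and 1 higher, with a median log2 change of -0.15, and 12 reached an unadjusted p under 0.05. Cnp, which encodes the phosphodiesterase of the cytoplasmic channels of myelin, had the smallest p. It measured 600, 673, 647, 628 and 577 CPM in wild-type libraries and 489, 476, 561, 506 and 492 CPM in PON2-deficient libraries. The highest PON2-deficient library lay below the lowest wild-type library. The means were 625 ± 38.0 and 505 ± 33.3 CPM (SD, n = 5 each; log2 change -0.31, SE 0.0595, adjusted p = 0.426). Mal, a proteolipid of myelin membranes, measured 394 ± 32.5 against 333 ± 19.0 CPM (SD, n = 5 each; log2 change -0.24, SE 0.0647), with PON2-deficient library 4 above wild-type library 5 and no other overlap. Cldn11, the claudin of the tight junctions within myelin, measured 289, 287, 320, 330 and 296 CPM against 241, 250, 284, 248 and 275 CPM (log2 change -0.23, SE 0.0626), without overlap.

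Mbp and Mobp, both abundant in myelin-forming cells, had smaller log2 changes than Cnp, a difference that was not tested. Mbp, myelin basic protein, measured 3712, 3862, 4336, 4389 and 3534 CPM in wild-type libraries and 3151, 3324, 4057, 3607 and 3404 CPM in PON2-deficient libraries (log2 change -0.18, SE 0.0802, adjusted p = 0.566). PON2-deficient libraries 3 and 4 lay inside the wild-type range. Mobp, a protein of compact myelin, measured 1391 ± 66.9 against 1262 ± 88.2 CPM (SD, n = 5 each; log2 change -0.14, SE 0.0577, adjusted p = 0.534). The adhesion proteins of the inner and outer myelin surface had larger log2 changes, -0.29 for Mag (SE 0.0885) and -0.27 for Mog (SE 0.0900), as did the membrane proteins Pllp (-0.29), Opalin (-0.28) and Bcas1 (-0.24) and the septin Sept4 (-0.30). Members that lay near 0 included Nfasc (-0.0093), Tppp (-0.0091) and Omg (0.0074), the only member above 0.

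Among the 30 markers of mature oligodendrocytes other than myelin proteins, 29 were lower and 1 (Car2, carbonic anhydrase 2, log2 change 0.036) was higher, with a median of -0.15 and 12 members at an unadjusted p under 0.05. The regulators of the lineage were among them. Sox10 measured 81.5 ± 7.11 CPM in wild-type libraries and 67.1 ± 7.83 CPM in PON2-deficient libraries (SD, n = 5 each; log2 change -0.28, SE 0.0867, adjusted p = 0.447). Myrf, the transcription factor that maintains myelin gene expression, measured 95.4 ± 7.12 against 85.6 ± 5.40 CPM (log2 change -0.16, SE 0.0630). Olig1 had a log2 change of -0.17 (SE 0.0670) and Olig2 had -0.075 (SE 0.105), a difference that was not tested. Nkx6-2 (-0.24) and Zfp488 (-0.18) had the same sign. S1pr5, the sphingosine-1-phosphate receptor of oligodendrocytes, was the member with the smallest p. It measured 26.3, 27.0, 27.0, 28.7 and 24.8 CPM against 22.3, 22.4, 24.4, 23.7 and 21.6 CPM, without overlap (log2 change -0.23, SE 0.0594, adjusted p = 0.428). The largest difference in the list was that of Ppp1r14a, an inhibitor of myosin phosphatase, at -0.35 (SE 0.104), followed by Sox10 and by Il33, a nuclear cytokine, at -0.28 (SE 0.0827).

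Of the 18 genes of myelin lipid synthesis and lipid handling, 14 were lower and 4 higher, with a median of -0.054 and 3 at an unadjusted p under 0.05. Apod, an apolipoprotein that oligodendrocytes and astrocytes secrete, measured 230, 231, 236, 250 and 238 CPM in wild-type libraries and 176, 193, 196, 215 and 207 CPM in PON2-deficient libraries. The groups did not overlap (means 237 ± 7.91 and 197 ± 14.6 CPM, SD, n = 5 each; log2 change -0.26, SE 0.0562, adjusted p = 0.426). In the fit of 30 libraries Apod had an adjusted p of 0.0329. Fa2h, which makes the hydroxylated fatty acids of myelin galactolipids, had a log2 change of -0.16 (SE 0.0661), and Gal3st1, which makes sulfatide, had -0.16 (SE 0.0784). Ugt8a, which makes galactosylceramide, had -0.0078 (SE 0.105), and Galc, which degrades it, 0.13 (SE 0.0850), the highest of the list.

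**Figure D3:**
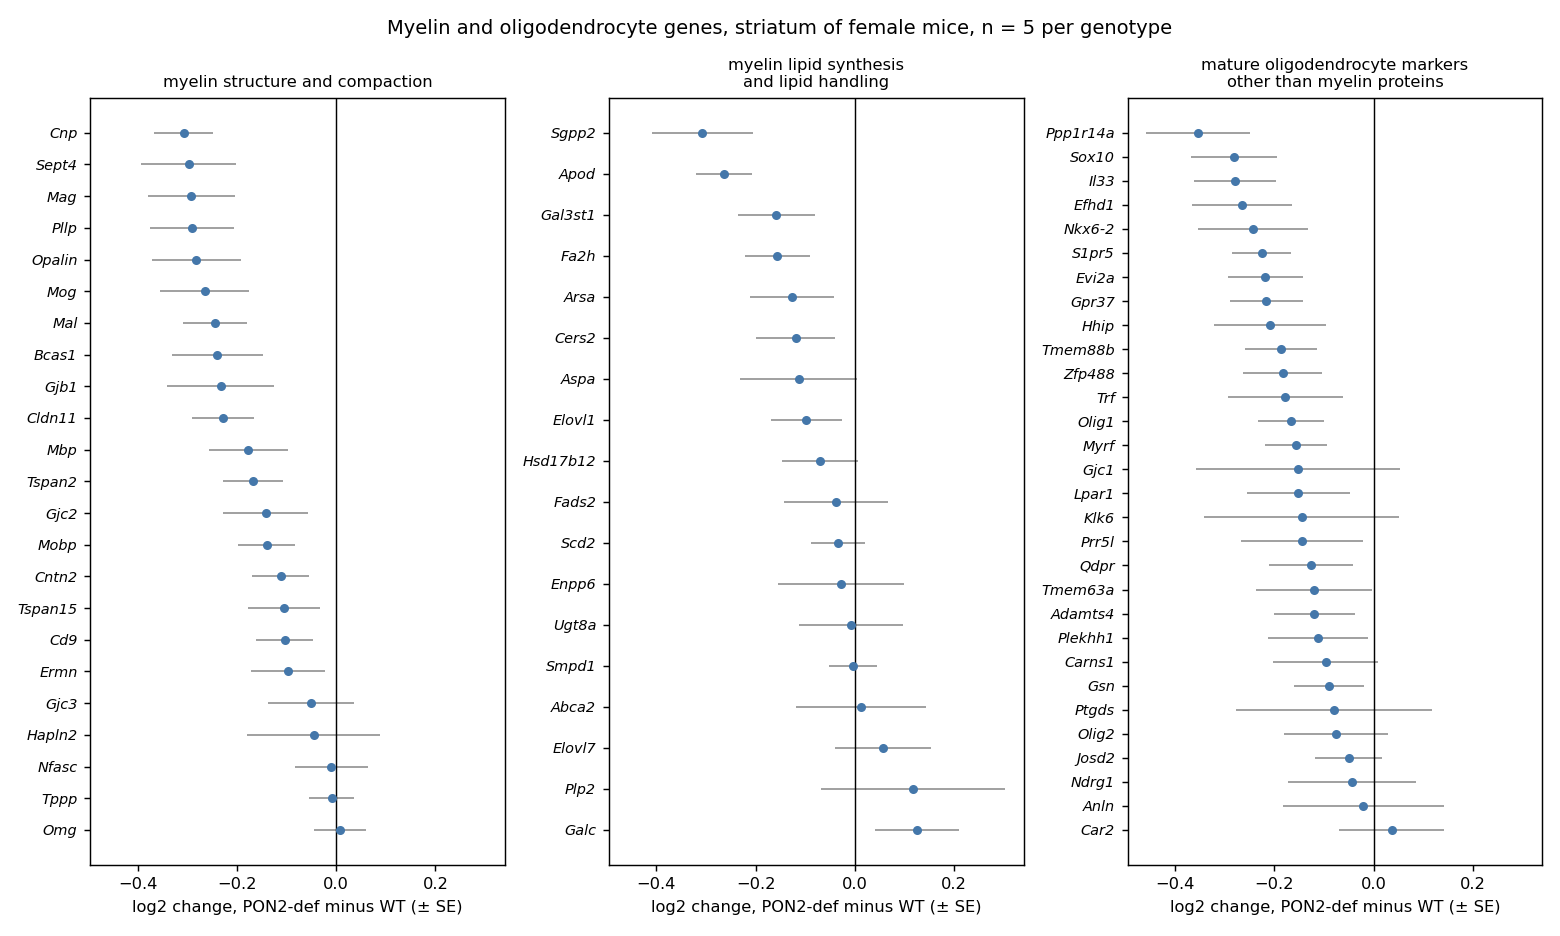
Log2 change (PON2-deficient minus wild-type) with SE for the myelin and oligodendrocyte genes reported here, in 3 lists ordered by size of change. In the lists of structure and of mature oligodendrocyte markers 1 point each (Omg and Car2) lies right of 0, and in the lipid list 4 of 18 do.

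Of 18 genes of precursors and newly formed oligodendrocytes 10 were higher and 8 lower. Their median was 0.0047, and it ran from -0.035 to 0.037 with 1 library left out. The difference from the mature lists was not tested. Tnr, which encodes tenascin-R of perineuronal nets and precursors, was higher at an unadjusted p under 0.05 (135 ± 5.08 against 152 ± 12.2 CPM, SD, n = 5 each; log2 change 0.17, SE 0.0593, adjusted p = 0.480), and Tcf7l2 was lower at 24.7 ± 12.6 against 12.6 ± 6.90 CPM (log2 change -0.97, SE 0.430). Tcf7l2 is also a gene of thalamic neurons and is counted in that list too.

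Library measures were set beside the myelin result. The 15 markers of thalamic neurons, which border the striatum along the internal capsule, were all lower, with a median log2 change of -0.69 and 7 at an unadjusted p under 0.05. None was called. Their summed level was 442 to 1030 CPM in wild-type libraries and 351 to 592 CPM in PON2-deficient libraries, and no marker was at 0 in any library. Lef1 measured 6.13, 7.53, 14.2, 6.16 and 7.45 CPM in wild-type libraries and 4.40, 4.96, 5.70, 4.45 and 4.05 CPM in PON2-deficient libraries. Wild-type library 3 had the highest thalamic mean (5.53 on the log2 scale) and the highest means of all 3 myelin and oligodendrocyte lists. Without that library the median log2 change was -0.38 for the thalamic markers and -0.093 for the mature oligodendrocyte markers, and it was -0.018 for the myelin lipid genes. The myelin structure median lay between -0.20 and -0.13 whichever of the 10 libraries was left out. With the thalamic mean of each library in the model, the medians were -0.13 for myelin structure, -0.091 for mature oligodendrocyte markers and 0.0094 for lipid genes. In the reverse model, with the mean of the myelin and oligodendrocyte lists, the thalamic median was -0.077. What the thalamic and myelin results share was not tested.

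Markers of other tissue beside the striatum went in both directions. Of the 15 tested choroid plexus markers 14 were higher (median 0.51), but their summed level ran from 46.1 to 1246 CPM in wild-type libraries and from 42.8 to 1955 CPM in PON2-deficient libraries, and the median was -0.64 without PON2-deficient library 5. Wfdc2 and Cldn2 were at 0 in some libraries. Ependymal markers were higher in 13 of 15 (median 0.26, summed level 49.1 to 76.8 against 60.9 to 78.1 CPM), and Spag6l, of the ciliary axoneme, had groups that did not overlap (5.18 ± 0.328 against 6.19 ± 0.278 CPM, SD, n = 5 each; log2 change 0.26, SE 0.0885). Meningeal fibroblast markers were higher in 11 of 14 (median 0.17, and -0.043 with the length slope or 0.037 with the myelin mean in the model), with Serpinf1 the lower member of smallest p (-0.55, SE 0.152), and cortical excitatory neuron markers were higher in 13 of 20 (median 0.059), which was -0.13 to 0.21 with 1 library left out. Pallidal and cholinergic markers were lower in 11 of 14 (median -0.13), which was -0.034 without PON2-deficient library 4, -0.21 without wild-type library 3 and 0.021 with the length slope of each library, described next, in the model. Of 8 tested hypothalamic and septal peptide genes 5 were lower; Avp, vasopressin, stood at 50.7 CPM in wild-type library 2 against 2.09 to 4.19 CPM in the other wild-type libraries. Red blood cell genes were higher in 5 of 6 (median 0.083). With the mean of the cortical markers in the model the medians were -0.15 for myelin structure, -0.16 for mature oligodendrocyte markers and -0.053 for lipid genes. The part of the other tissues of this paragraph in the myelin result was not tested.

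A second library measure moved with genotype. The slope of each library's log2 deviation against log2 transcript length was -0.018 to -9.19e-05 in wild-type libraries and 2.66e-06 to 0.013 in PON2-deficient libraries, so that the groups did not overlap. With this slope in the model the myelin medians were -0.14 (structure), -0.13 (lipids) and -0.16 (mature oligodendrocyte markers), and the thalamic median was -1.46. Those of the choroid plexus, ependymal and cortical markers were 1.63, 0.019 and -0.68. Since the slopes of the genotypes do not overlap, length slope and genotype are confounded and cannot be cleanly told apart. Values with the slope in the model, here and elsewhere, are therefore uncertain and are given as descriptions.

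**Figure D4:**
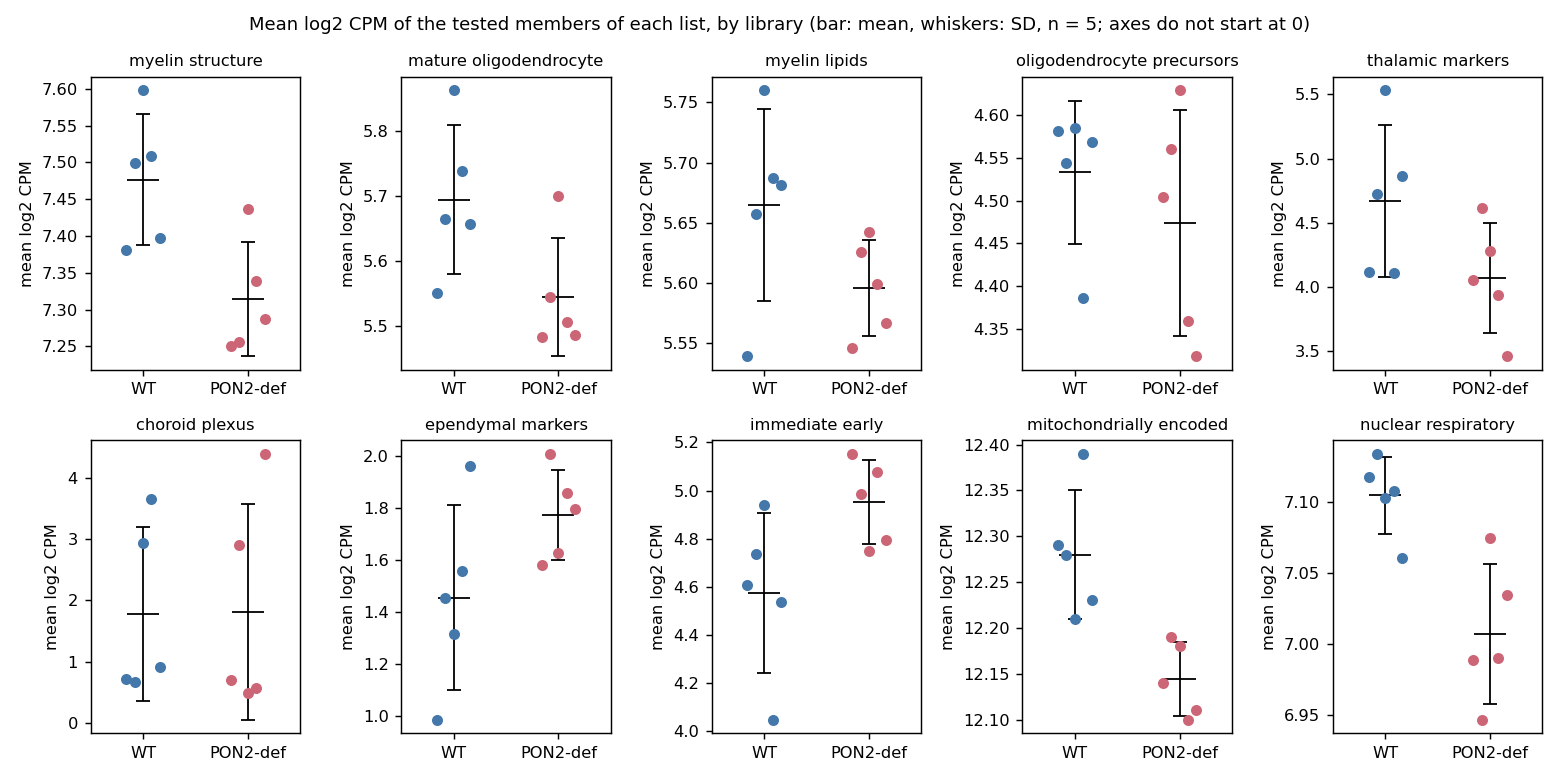
Mean log2 CPM of the tested members of 10 gene lists in each wild-type (WT) and PON2-deficient (PON2-def) library, with the mean (bar) and SD (whiskers) of 5 libraries; the axes do not start at 0. The mitochondrially encoded genes separate the groups (12.21 to 12.39 against 12.10 to 12.19), the other 9 overlap, and wild-type library 3 is highest in both the myelin structure and thalamic panels.

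Markers of the striatal neurons themselves lay near 0. Shared markers of projection neurons were higher in 15 of 23 (median 0.015), those of the direct pathway in 6 of 10 (median 0.014) and those of the indirect pathway in 4 of 9 (median -0.0054). With the length slope in the model these medians were 0.56, 0.41 and 0.32, and with the thalamic mean the shared and indirect pathway medians were both -0.18. Six3, a homeobox factor of indirect pathway neurons, was lower at 103 ± 4.76 against 78.9 ± 13.6 CPM (SD, n = 5 each; log2 change -0.38, SE 0.101, adjusted p = 0.428) and was called by DESeq2. Ppp1r1b, on the scale of the 10 libraries, ranged from 1618 to 2332 CPM in wild-type libraries and from 1355 to 2303 CPM in PON2-deficient libraries (log2 change -0.19, SE 0.159), and its sign turned with the length slope in the model (0.43). In the direct pathway list Eya1 (0.27, SE 0.265) and Chrm4, the muscarinic receptor (0.12, SE 0.133), had the smallest p, and in the indirect pathway list Plxdc1 (-0.18, SE 0.119) and the kainate receptor Grik3 (0.076, SE 0.0672). Interneuron markers were lower in 8 of 14 (median -0.018, and -0.19 with the length slope in the model). Beside Pvalb, Sst (somatostatin) measured 208 ± 9.91 against 194 ± 13.6 CPM (log2 change -0.10, SE 0.0571), Chat, of cholinergic interneurons, had -0.18 (SE 0.127) and Npy -0.031 (SE 0.109).

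Dopamine receptors, enzymes and signalling genes were higher in 10 of 18 (median 0.0086). Their median was 0.22 with the length slope and -0.10 with the thalamic mean in the model. Drd3 reached 0.776 ± 0.205 against 1.14 ± 0.308 CPM (SD, n = 5 each; log2 change 0.56, SE 0.247), and Maob, which degrades dopamine, had -0.12 (SE 0.0778). Genes of GABA synthesis, transport and receptors were split 10 to 10 (median -0.018), with the vesicular transporter Slc32a1 at -0.16 (SE 0.0756) and the receptor subunit Gabbr1 at -0.064 (SE 0.0444). Glutamate receptors were higher in 10 of 22 (median -0.028), with Grm5 at 0.21 (SE 0.0799) and Grm7 at 0.17 (SE 0.0627). Calcium channels, stores and pumps were higher in 20 of 33 (median 0.036, and 0.11 with the length slope in the model), with Ryr2, the calcium release channel of the endoplasmic reticulum, at 93.6 ± 8.49 against 110 ± 8.06 CPM (log2 change 0.23, SE 0.0718) and the muscle pump Atp2a1, scarce here, at -1.59 (SE 0.863).

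Immediate early genes, which neurons transcribe within minutes of activity, were higher in 21 of 24 members, with a median log2 change of 0.31. None was called, by edgeR, by DESeq2 or in the fit of 30 libraries, and 9 of the 21 reached an unadjusted p under 0.05. Their summed level was 944 to 1383 CPM in the wild-type and 1374 to 1607 CPM in the PON2-deficient group. The orphan nuclear receptors Nr4a1 and Nr4a3 belong to the list, and many of these genes are switched on by CREB, which recognises a motif with the core TGACG. Their promoters, from the same source and with TGACG or its reverse complement CGTCA in capitals, are shown because they hold 4 matches each. Nr4a1 lies at chr15:101266596-101266845 (plus strand) and Nr4a3 at chr4:48045055-48045304 (plus strand).
Nr4a1: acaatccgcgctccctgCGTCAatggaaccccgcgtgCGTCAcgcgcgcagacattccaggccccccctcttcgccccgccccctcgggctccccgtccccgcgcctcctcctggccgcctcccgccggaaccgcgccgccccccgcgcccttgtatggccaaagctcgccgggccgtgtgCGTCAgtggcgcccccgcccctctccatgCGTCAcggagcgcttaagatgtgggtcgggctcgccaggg
Nr4a3: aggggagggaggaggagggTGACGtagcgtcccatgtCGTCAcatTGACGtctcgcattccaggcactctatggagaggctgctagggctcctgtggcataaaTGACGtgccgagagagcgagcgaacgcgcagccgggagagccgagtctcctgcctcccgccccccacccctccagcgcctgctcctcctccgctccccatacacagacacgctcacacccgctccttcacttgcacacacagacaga
This core was found in 17 of 31 promoter windows of the immediate early genes (54.8%) against 5836 of all 32851 windows (17.8%). The 31 windows belong to 20 of these genes. These matches say nothing about binding in these samples.

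Nr4a1 measured 59.4, 54.9, 101, 22.6 and 65.8 CPM in wild-type libraries and 131, 117, 82.2, 81.9 and 101 CPM in PON2-deficient libraries (log2 change 0.75, SE 0.293, adjusted p = 0.518). Wild-type library 3 lay within the PON2-deficient range, and wild-type library 4 was far below all others. Nr4a3 measured 20.7, 18.2, 15.2, 8.10 and 10.3 CPM against 27.9, 30.5, 20.2, 32.8 and 11.2 CPM (log2 change 0.76, SE 0.299, adjusted p = 0.521), with PON2-deficient libraries 3 and 5 inside the wild-type range. Fosb, a subunit of AP-1, had the smallest p of the list at 12.6 ± 1.32 against 16.9 ± 3.90 CPM (SD, n = 5 each; log2 change 0.42, SE 0.147, adjusted p = 0.475). The AP-1 subunit Fosl2 had 0.76 (SE 0.293), and the zinc finger factors Egr1 and Egr2 had 0.41 (SE 0.164) and 0.81 (SE 0.337). Fos itself was low and variable, at 6.92 ± 4.78 against 11.2 ± 3.56 CPM (log2 change 0.69, SE 0.456). With the length slope in the model the median of the list was -0.11 and Nr4a1 had -0.21. With the thalamic mean in the model the median was 0.50.

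Genes of the respiratory chain were lower as a group by small amounts. The 13 mitochondrially encoded genes were all lower (median -0.13, 6 at an unadjusted p under 0.05), and their summed level was 86300 to 96140 CPM in wild-type libraries and 79790 to 85640 CPM in PON2-deficient libraries, without overlap. mt-Atp6, a subunit of ATP synthase, measured 10070, 10090, 9898, 11140 and 9778 CPM against 9024, 8889, 9848, 8542 and 8629 CPM (log2 change -0.18, SE 0.0531, adjusted p = 0.428), with PON2-deficient library 3 inside the wild-type range. mt-Nd6, a subunit of complex I, had -0.22 (SE 0.0814). Of the 41 nuclear genes of the chain 37 were lower (median -0.11), 19 of them at an unadjusted p under 0.05, and 6 had all PON2-deficient libraries below all wild-type libraries. Over all genes 49.9% were lower, 4.52% were lower at that p, and 1.06% had no overlap in this direction. Ndufb8, of complex I, measured 141 ± 9.24 against 122 ± 4.47 CPM (SD, n = 5 each; log2 change -0.21, SE 0.0538, adjusted p = 0.428) and was called by DESeq2. Atp5o, of ATP synthase, measured 147 ± 6.21 against 133 ± 4.86 CPM (log2 change -0.14, SE 0.0464), and Cox4i1, of complex IV, 443 ± 22.2 against 399 ± 15.8 CPM (log2 change -0.15, SE 0.0497). Both had groups that did not overlap. With the length slope in the model, which is confounded with genotype, the medians were -0.035 for the mitochondrially encoded and -0.042 for the nuclear genes.

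Cytosolic ribosomal protein genes were lower in 34 of 38 (median -0.049). Rpl11 had the smallest p (-0.24, SE 0.101), Rpl35 had -0.12 (SE 0.0615), and the median with the length slope in the model was 0.0068. Antioxidant and NRF2 target genes were lower in 26 of 32 (median -0.060), with 5 at an unadjusted p under 0.05. Prdx5, a peroxiredoxin of mitochondria and peroxisomes, measured 150 ± 10.3 against 132 ± 2.43 CPM (SD, n = 5 each; log2 change -0.18, SE 0.0519, adjusted p = 0.428). Sod1, the cytosolic superoxide dismutase, measured 182 ± 6.18 against 168 ± 4.37 CPM (log2 change -0.12, SE 0.0425), and the groups overlapped for neither gene. Gsr, glutathione reductase, was a member on the other side of 0, at 0.19 (SE 0.0992). Genes of coenzyme Q synthesis were lower in 8 of 13 (median -0.029), with Coq8a at -0.16 (SE 0.0857) and Coq6 at -0.13 (SE 0.0725).

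Among stress pathways, genes of the unfolded protein response were higher in 14 of 22 (median 0.051). Herpud1, which helps remove misfolded proteins from the endoplasmic reticulum, was lower without overlap of the groups (45.5 ± 3.34 against 39.1 ± 1.34 CPM, SD, n = 5 each; log2 change -0.22, SE 0.0571), and Edem1, of the same process, was higher without overlap (log2 change 0.20, SE 0.0662). Heat shock chaperones were split 9 to 9 (median -0.0026), with Hspe1 at -0.096 (SE 0.0554) and Dnaja1 at -0.10 (SE 0.0686). Glucocorticoid-induced genes were lower in 9 of 13 (median -0.14, and -0.021 without wild-type library 5 or -0.070 without PON2-deficient library 3), with Tsc22d3 at -0.32 (SE 0.129) and the metallothionein Mt1 at -0.12 (SE 0.0659). Circadian clock genes were lower in 12 of 18 (median -0.091, and -0.19 to -0.026 with 1 library left out); Bhlhe41 had -0.33 (SE 0.130) and Nr1d1, which encodes REV-ERB alpha, -0.38 (SE 0.157). Cholesterol synthesis genes were higher in 13 of 24 (median 0.0032, and -0.16 with the length slope in the model), with Nsdhl at -0.18 (SE 0.0712) and Ebp at 0.29 (SE 0.121).

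The lists of astrocyte, microglia, endothelial and mural, interferon-stimulated and inflammatory genes had medians between -0.052 and 0.11. With the length slope in the model the endothelial and mural median was 0.22 and the astrocyte median -0.13. Astrocyte markers were lower in 12 of 20 (median -0.026), with the calcium-binding protein S100b at 121 ± 13.3 against 101 ± 5.61 CPM (SD, n = 5 each; log2 change -0.25, SE 0.0734) and the glycolytic enzyme Aldoc at -0.16 (SE 0.0526). Microglia markers were lower in 14 of 18 (median -0.052), with the complement gene C1qc at -0.15 (SE 0.0712) and Sall1 at 0.17 (SE 0.0857), and endothelial and mural markers were higher in 12 of 20 (median 0.025), with Tagln at -0.32 (SE 0.172) and Ly6c1 at -0.15 (SE 0.0889). Interferon-stimulated genes were higher in 14 of 18 (median 0.11, and 0.033 without wild-type library 5). Irf9, which carries the interferon signal to DNA, was higher without overlap at 7.68 ± 0.991 against 9.90 ± 0.747 CPM (log2 change 0.37, SE 0.102, adjusted p = 0.428), while Ifit3 had -0.30 (SE 0.166). Inflammatory and NF-kB target genes were higher in 9 of 13 (median 0.028), with Socs3 at 0.49 (SE 0.194) and Vcam1 at 0.14 (SE 0.0979). Of the 30 tested neighbours of Pon2 on chromosome 6, 13 were higher and 17 lower (median -0.014). Casd1, at 68.2 ± 2.75 against 75.8 ± 2.79 CPM (log2 change 0.15, SE 0.0461), had the smallest p, ahead of Ndufa4 (-0.13, SE 0.0450), a respiratory chain gene.

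To ask where striatum differed from the other regions of female mice, the difference of the genotype effect was tested over 30 libraries and 19776 genes. The labels do not say which libraries of different regions come from the same mouse, and the fit treated all 30 as independent. Results that regions share may therefore not be independent of each other. Between striatum and cortex 0 genes were called, with 1531 (7.74%) at an unadjusted p under 0.05. Between striatum and cerebellum 2 genes were called (0.0101%), Pon2 and Gm43610, and 1643 (8.31%) reached an unadjusted p under 0.05. The fall of Pon2 was smaller in striatum, by 1.99 on the log2 scale (SE 0.298, adjusted p = 0.00292). Gm43610, named after its values were seen, is an unclassified transcript too rare in striatum to pass the filter there, with 0 or 1 rounded counts in each wild-type and 9 to 15 in each PON2-deficient library. It was called with no filter and, in striatum, by the fit of 30 libraries (adjusted p = 1.02e-04, edgeR). DESeq2 was run on the filtered genes only and did not test it. Both differences share the striatum libraries, and limma voom called 0 and 2 genes.

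In the fits of each region, which called 1 gene in cortex (0.00550%) and 1 in cerebellum (0.00558%), the myelin structure list was lower in 23 of 24 members in striatum, in 7 of 24 in cortex (median 0.042) and in 12 of 24 in cerebellum (median 0.0041), against 51.3% and 49.5% of all genes lower in cortex and cerebellum. Mature oligodendrocyte markers were lower in 29, 4 and 11 of 30 in the same order, with medians of -0.15, 0.073 and 0.011. In the test of the difference between striatum and cortex all 24 myelin structure genes lay below 0 (median -0.23), against 49.7% of all genes, 5 at an unadjusted p under 0.05 and 0 called. For Cnp that difference was -0.29 (SE 0.126, adjusted p = 0.592) and for Mbp -0.35 (SE 0.158, adjusted p = 0.622). Between striatum and cerebellum, where 50.4% of all differences lay below 0, 22 of the 24 did (median -0.14), 1 at an unadjusted p under 0.05. Thalamic markers were lower in 15 of 15 in striatum, 6 of 15 in cortex (median 0.0013) and 10 of 15 in cerebellum (median -0.053). Immediate early genes were higher in all regions, in 21 of 24 in striatum, 23 of 24 in cortex (median 0.37) and 18 of 23 in cerebellum (median 0.11), and 13 of the 24 differences between striatum and cortex lay above 0 (median 0.031), with 0 called. Nuclear respiratory genes were lower in 24 of 41 in cortex (median -0.016) and in 5 of 41 in cerebellum (median 0.047), and 28 of the 41 differences between striatum and cerebellum had an unadjusted p under 0.05, with 0 called. The mitochondrially encoded genes were lower in 6 of 13 in cortex (median 0.0083) and in 11 of 13 in cerebellum (median -0.098). Their differences between striatum and cerebellum had a median of -0.036, with 1 at an unadjusted p under 0.05 and 0 called.

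**Figure D5:**
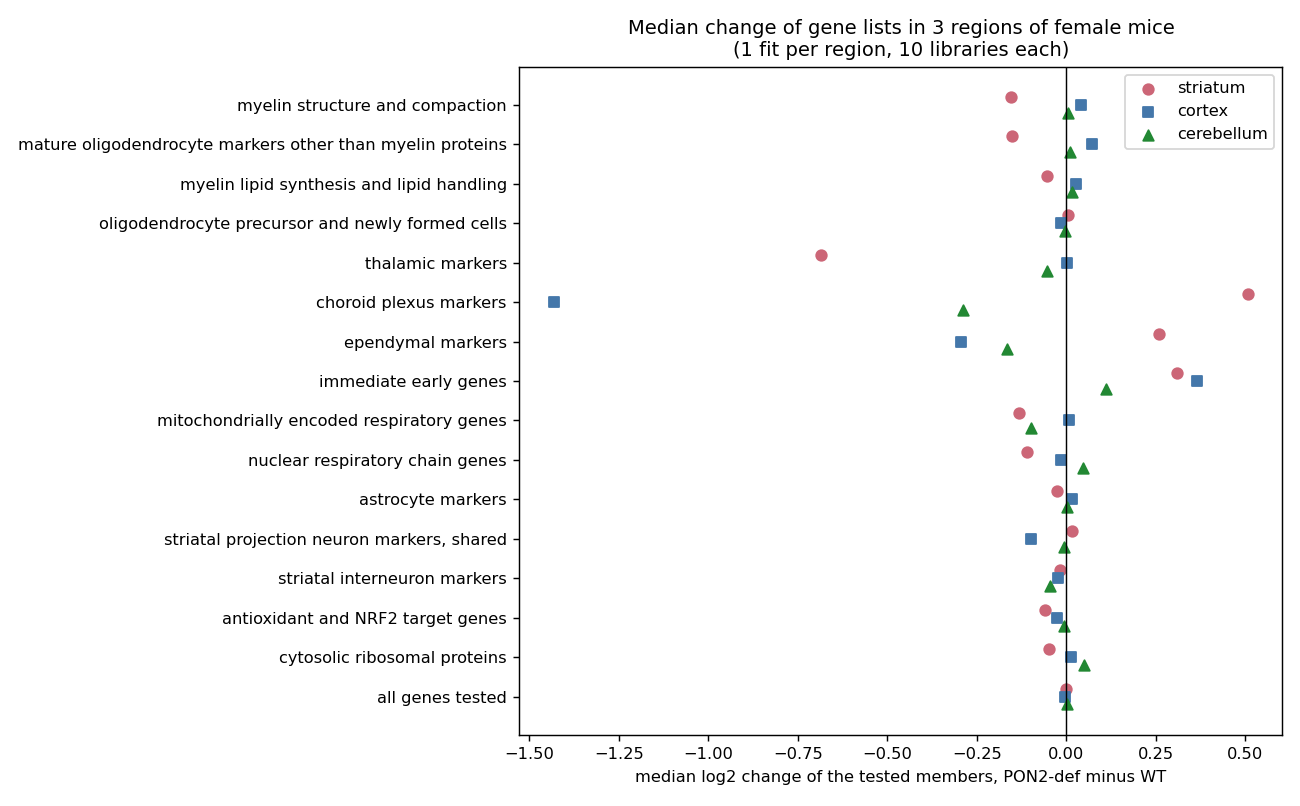
Median log2 change (PON2-deficient minus wild-type) of the tested members of 16 sets of genes in striatum, cortex and cerebellum of female mice, from 1 fit per region of 10 libraries. The myelin structure and mature oligodendrocyte medians are about -0.15 in striatum and above 0 in the other regions, and the immediate early genes are above 0 in all 3.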

How the data were processed

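RNA from 60 striatum, cortex and cerebellum samples was sequenced as 150 nt paired reads, and the 10 female striatum libraries were compared here by genotype. Per the submitters' processing notes, the authors used Salmon, edgeR and limma, whose versions, with the genome build, were not given in the sources used here. Expected counts per gene, as deposited, are estimates that need not be whole and were rounded. The deposited log2 CPM values could be recomputed from the deposited counts with voom (largest deviation 5.33e-14), and the deposited weight is a precision score from the same step. Gene positions came from GENCODE M21 (GRCm38), matched by identifier for 20403 of 20423 genes (99.9%).

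The main test was the quasi-likelihood test of edgeR 4.0.16 (R 4.3.3) on the 10 libraries with TMM scaling; filterByExpr removed 2244 genes and left 18179. P-values were adjusted by Benjamini-Hochberg, with a threshold of 0.05. Differences between regions were fitted over the 30 libraries of female mice, 5 for each genotype and region, without a term for the mouse. Alternatives used DESeq2 1.42.0 and limma 3.58.1. The script was tested on simulated data. The 38 lists hold 719 genes, 14 of them not in the table. Some items are counted in the totals and not reported here. Members and lists were chosen with earlier results of these data known, so their counts and medians are descriptions. Named genes were Pon2 and Pon3, called genes, the 12 uncalled genes of smallest p in each direction with a mean of at least 1 CPM, the members of each list with the smallest p, and any myelin or oligodendrocyte gene. Predicted and clone names were left out before the 12 in each direction were taken. The mean log2 CPM of a list used a prior count of 2. Counts per library limit the precision of scarce genes, and SD and SE are over libraries.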

Additional observations from a re-analysis of the deposited data

Results flagged for a closer look

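A library was set apart when its distance to the nearest of the other 4 in its group exceeded 0.71 of the range of the group. This happened in 22 of 316 groups (6.96%), where chance gives about 1 in 20. Wild-type library 2 stood apart in peptide, receptor and other genes: Avp measured 50.7 CPM against 2.09 to 4.19 CPM in the other wild-type libraries, Ngfr 25.5 against 8.79 to 9.80 CPM, Cygb 87.9 against 73.4 to 77.2 CPM, Nsdhl 21.9 against 18.4 to 19.4 CPM, and Grm5 lower at 232 against 280 to 298 CPM. Wild-type library 3 stood apart in Pmch, which encodes melanin-concentrating hormone, at 13.1 against 0.430 to 0.918 CPM, in Lef1 at 14.2 against 6.13 to 7.53 CPM, and in Atp2a1 at 3.28 against 0.186 to 0.672 CPM. Wild-type library 4 was high in Slc16a7 (29.1 against 22.6 to 23.8 CPM) and mt-Atp6 (11140 against 9778 to 10090 CPM), and low in the mean of the precursor list (4.39 against 4.54 to 4.59 log2 CPM). Wild-type library 5 was low in the mean of the interferon-stimulated genes (1.45 against 1.80 to 1.87 log2 CPM).

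PON2-deficient library 3 was high in Cygb (67.9 against 61.4 to 62.4 CPM in the others of its group), S100b (111 against 97.6 to 101 CPM), Prdx5 (136 against 130 to 132 CPM) and the mean of the mature oligodendrocyte markers (5.70 against 5.48 to 5.55 log2 CPM). PON2-deficient library 5 was high in Tmem72, a choroid plexus gene, at 42.1 against 4.70 to 12.8 CPM, in Galc at 43.5 against 31.4 to 33.3 CPM and in Ly6c1 at 36.5 against 27.1 to 29.6 CPM, and low in Ccdc124 at 48.0 against 54.5 to 56.9 CPM. PON2-deficient library 2 was high in Aldoc (700.4 against 624 to 643 CPM), and PON2-deficient library 4 was high in Sst (217 against 185 to 194 CPM).

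The genotype effect differed between striatum and cerebellum for Pon2, by 1.99 on the log2 scale (SE 0.298, adjusted p = 0.00292, edgeR), and for Gm43610, by 3.70 (SE 0.483, adjusted p = 0.00122, edgeR). The fitted size for Gm43610 depends on the prior count, since wild-type striatum held 0 or 1 counts per library.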

How the results depend on the processing

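Pon2 was called lower under all 24 alternatives, 21 planned and 3 added after the data were seen (limma voom with quality weights, leaving out wild-type library 1 and PON2-deficient library 5, and the fit of 30 libraries). The count of called genes was 2 with no filter (1 higher), 101 with DESeq2 (33 higher, 68 lower), 2 with the length slope in the model (both lower) and 46 in the fit of 30 libraries (13 higher, 33 lower). It ranged from 1 to 4 with 1 library left out, with 0 to 3 higher and 1 to 2 lower: it was 2 without wild-type library 1 (adding Tmbim1, which DESeq2 also called), without wild-type library 2 or without PON2-deficient library 3 (both adding Gm43610), and 4 without wild-type library 3. Of 2856 pairs of a named gene and an alternative, 2796 kept direction and side of the threshold, 36 became called and 24 changed sign.

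Signs turned for Fezf2 (-0.68), Alas2 (-0.53), Nr4a1 (-0.21), Ebp (-0.029), Tagln (0.013), Ly6c1 (0.091), Rpl35 (0.038) and Ppp1r1b (0.43) with the length slope in the model. They turned for Hba-a1 (-0.28), Alas2 (-0.037), Elovl1 (0.039), Plxdc1 (0.0091), Atp2a1 (0.77) and Mbp (0.0084) with the myelin mean, and for Tmem72 (-0.0042), Hba-a1 (-0.090) and Chrm4 (-0.059) with the thalamic mean. Without PON2-deficient library 5 they turned for Pon3 (-0.094), Calml4 (-0.059) and Tmem72 (-0.38), without that library and wild-type library 1 for Pon3 (-0.12), Calml4 (-0.22) and Tmem72 (-0.55), and without PON2-deficient library 4 for Fezf2 (-0.018). With 1 library left out these 4 genes ranged from -0.094 to 0.27 (Pon3), -0.059 to 0.89 (Calml4), -0.38 to 1.123 (Tmem72) and -0.018 to 0.50 (Fezf2). The cause was not tested. With the mean of the myelin lists itself in the model their medians were -0.046, 0.036 and -0.019, by its construction.

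Replicate numbers did not pair the libraries: deviations of same-numbered libraries correlated at -0.091 to 0.055, and 1 of 10 libraries correlated best with its own number. With the replicate block 1 gene was called and 1381 had an unadjusted p under 0.05, against 1579. In the fit of 30 libraries the spread in striatum is assumed to be that of all 3 regions.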
